A study of Poecilia reticulata with 6 samples.

Results

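RNA from the intestine of guppies (Poecilia reticulata) held in seawater, 35‰ salt, was compared with RNA from the intestine of guppies held in fresh water, 0‰. The comparison used 4 of the 6 RNA-seq libraries of the series, 2 per salinity, and all 6 libraries, with the 2 at 18‰, shared the estimate of the spread of each gene. Every fish was an adult wild-type guppy kept at 28 °C under 14 hours of light and 10 hours of dark, and the salt was raised by 3‰ every 2 days until it reached 35‰ over 24 days, and when the 0‰ fish were sampled is not stated, so salinity and time under treatment cannot be told apart. The labels write the salinities as 0% and 35% salt. No source gives the number of fish or tanks behind a library, and the p-values therefore measure only the spread between these libraries, which may be technical. The values are TPM, a read count scaled for transcript length and library size. A gene entered the comparison if 2 or more of the 6 libraries reached a TPM of 1, as did 7897 of 10389 genes.

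A fish in seawater loses water to its surroundings and drinks to replace it. The intestine recovers that water by absorbing salt: Na+/K+-ATPase in the basolateral membrane of the enterocyte drives the uptake of sodium and chloride through cotransporters in the brush border, and water follows through channels and between cells. In fresh water the same tissue absorbs nutrients and scarce ions while the body has to keep excess water out. Enterocytes of the hind part of the fish gut also take up intact protein from the lumen and degrade it in large lysosomes.

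The libraries were not alike in what they held besides gut lining. The 10 genes of the epithelium check list summed to a TPM of 25988 and 22068 in the 35‰ libraries, against 11961 and 25538 in 0‰ replicates 1 and 2. The sum was lowest in 0‰ replicate 1, but members differed. In that library cdh17 was at its lowest, at 912 against 1063 in 0‰ replicate 2 and 1332 and 2236 at 35‰. There epcam was at its highest, at 838 against 633 in 0‰ replicate 2 and 504 and 600 at 35‰. Of the 10, 7 overlapped between the salinities. Liver markers were concentrated in 0‰ replicate 2: the 20 markers in the table summed to a TPM of 64.1 and 43.4 in the 35‰ libraries, against 103 and 2171 in 0‰ replicates 1 and 2. Leukocyte markers, 15 in all, summed to 576 and 526 at 35‰, against 1205 and 408 at 0‰, so 0‰ replicate 1 held the most. Genes of the rear gut were listed at 0 in 35‰ replicate 1, among them slc10a2, the ileal bile acid transporter, which had a TPM of 0 and 429 in the 35‰ libraries against 226 and 176 in the 0‰ libraries, and tmigd1, with 0 and 415 against 319 and 212. One further gene, the sulfate transporter slc13a1, had 19.4 and 13.8 in the 35‰ libraries, against 2307 and 11.7 in 0‰ replicates 1 and 2. In bulk tissue, fewer cells of a type and less RNA per cell cannot be told apart.

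Across the transcriptome, the largest differences were toward lower values in the seawater gut. For 3076 genes (39.0% of 7897) there was no overlap between the libraries of the 2 salinities, of which 1494 (18.9%) were higher in both 35‰ libraries and 1582 (20.0%) were lower. Of these, 150 of the higher and 295 of the lower genes had a log2 difference of at least 1 in size, on the log2(TPM + 1) scale, where differences of genes at a low TPM come out too small. The median log2 difference over all genes was -0.01. When the libraries were scaled to the same summed TPM over the table the median was -0.16, with 862 genes higher and 2458 lower, so the share of higher genes among those that did not overlap was 26% in place of 48.6%. In limma's moderated test with Benjamini-Hochberg adjustment and a fold change above 1.5, 15 genes (0.190%) were called, 1 higher (0.0127%) and 14 lower (0.177%) at 35‰. Leaving out 35‰ replicate 1 gave 3 calls, leaving out 35‰ replicate 2 gave 24, leaving out 0‰ replicate 1 gave 35 and leaving out 0‰ replicate 2 gave 85. The call of ctsl.1 was kept in each alternative that was run. With 2 libraries on each side, 0.333 is the smallest p an exact permutation test allows. The same 0.333 is the share of genes expected not to overlap if salinity made no difference to the order of the 4 libraries, beside the 39.0% seen. A gene that was not called is described below by its values and by whether its libraries overlapped.

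**Figure D1:**
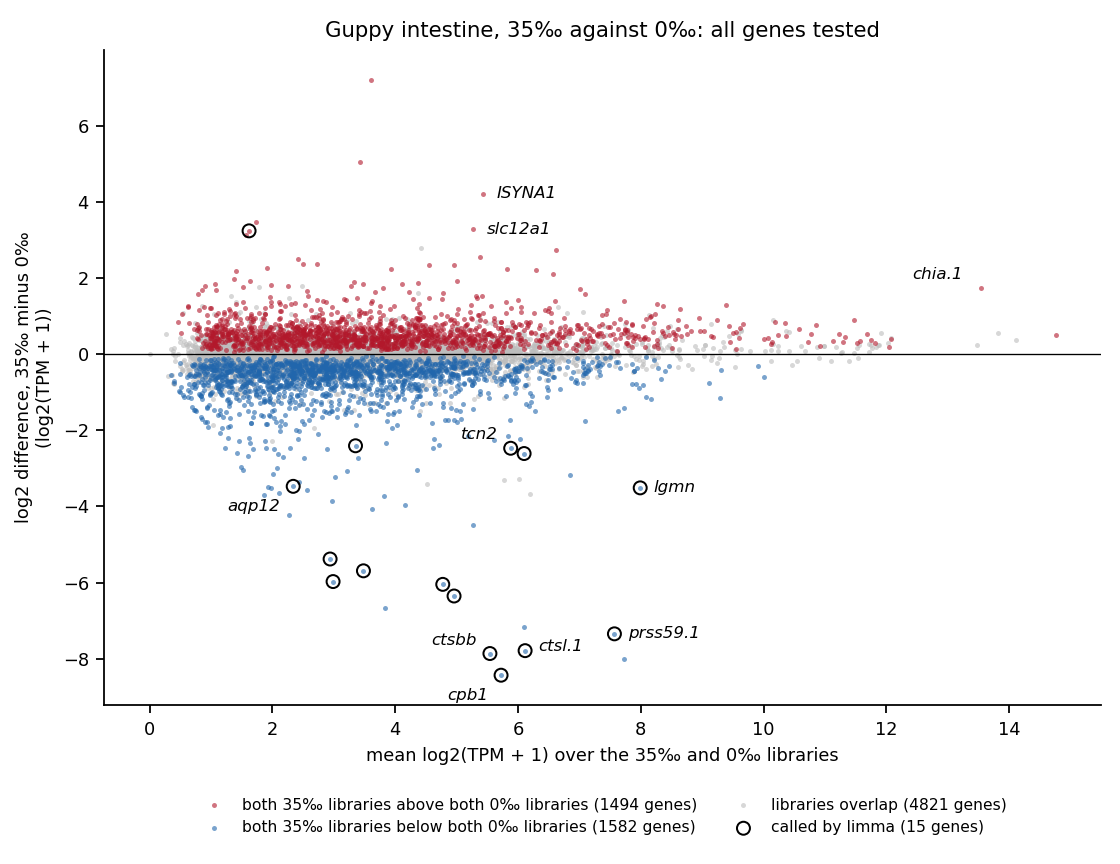
Log2 difference between 35‰ and 0‰ (vertical axis, log2(TPM + 1)) against mean log2(TPM + 1) over the 4 libraries (horizontal axis) for 7897 genes, each point a gene, coloured by whether the libraries of the 2 salinities overlapped and circled where limma called the gene. The genes with the largest differences lie below the line, down to -8.43 for cpb1.

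Of the 14 genes called lower at 35‰, 4 belong to the lists of lysosomal hydrolases, ctsl.1, ctsbb, lgmn and naga, and 3 to the list of pancreatic digestive enzymes, cpb1, prss59.1 and dnase1. The hydrolase lists held 13 and 29 tested genes and the pancreatic list 8. The cathepsin ctsl.1 had a TPM of 3.33 and 4.02 in the 35‰ libraries, against 1284 and 828 in the 0‰ libraries (log2 difference -7.79, standard error 0.27, limma adjusted p = 0.000113). Carboxypeptidase cpb1, which trims amino acids from the ends of digested peptides, had 0.40 and 4.77, against 1242 and 777 (-8.43, standard error 0.77, limma adjusted p = 0.0109). In both genes each 35‰ library was far below each 0‰ library. Others called were the cathepsin ctsbb (listed at 0 and 8.32, against 901 and 561), the trypsin-family protease prss59.1 (6.07 and 30.4, against 3048 and 1932), dnase1 (1.2 and 4.37, against 289 and 272) and endou (0.76 and 5.43, against 233 and 211). The remaining named genes were lgmn, naga and tcn2, described with the lysosome, and the water channel aqp12, described with water transport. The other called entries carry clone names. In 3 of them, si:dkey-243k1.3, si:ch211-255i20.3 and zgc:103438, TPM was lower at 35‰, at 0.05 and 1.3 against 58.0 and 108.5, at 0 and 0.41 against 78.0 and 30.1, and at 25.1 and 28.5 against 209 and 136. Another, si:dkey-266f7.9, was listed at 0 in both 35‰ libraries, against 72.4 and 52.9 at 0‰. The only gene called higher, si:dkey-27i16.2, had 8.96 and 7.94 at 35‰ and was listed at 0 in both 0‰ libraries, and a listed 0 may be a failed estimate as well as no expression.

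Among the genes with higher values at 35‰ were 2 of salt and osmolyte handling that limma did not call. Larger positive differences were seen in genes listed at 0 in a 0‰ library, such as rplp2 (7.20) and cyp7a1 (5.04), described below. ISYNA1, which makes myo-inositol from glucose 6-phosphate, had a TPM of 224 and 153 in the 35‰ libraries, against 16.6 and 4.73 in the 0‰ libraries (log2 difference 4.22, standard error 0.57, limma adjusted p = 0.0568). The Na-K-Cl cotransporter slc12a1 had 191 and 74.8, against 12.96 and 10.1 (3.28, standard error 0.43, limma adjusted p = 0.056). Among genes that did not overlap, had a mean TPM of at least 10 at 35‰ and were listed at 0 in none of the 4 libraries, the 15 with the largest positive difference also included sord (2.22), a copy of the organic ion transporter slc22a13b (2.24), the bile acid enzyme cyp8b2 (2.73), the early response gene fosab (2.56), the muscle genes mylz3, mylpfa and csrp1b (2.49, 2.36 and 2.34), the sialyltransferase st8sia6 (2.38), the acyl-CoA binding protein acbd7 (2.34), cbln10 (2.23), zgc:172121 (2.10) and the fatty acid transporter slc27a2a (1.93). None of these was called by limma.

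Genes were then grouped by function into 66 lists. A list is described by how many of its tested members were higher or lower in both 35‰ libraries, beside the 18.9% and 20.0% of all genes, and by its median log2 difference, beside the -0.01 of all genes. With a library omitted, fewer libraries have to keep an order, so more genes do not overlap. Counts at such an omission are set beside the shares of all genes at the same omission. No list was tested for enrichment, and members of a list are not replicates.

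**Figure D2:**
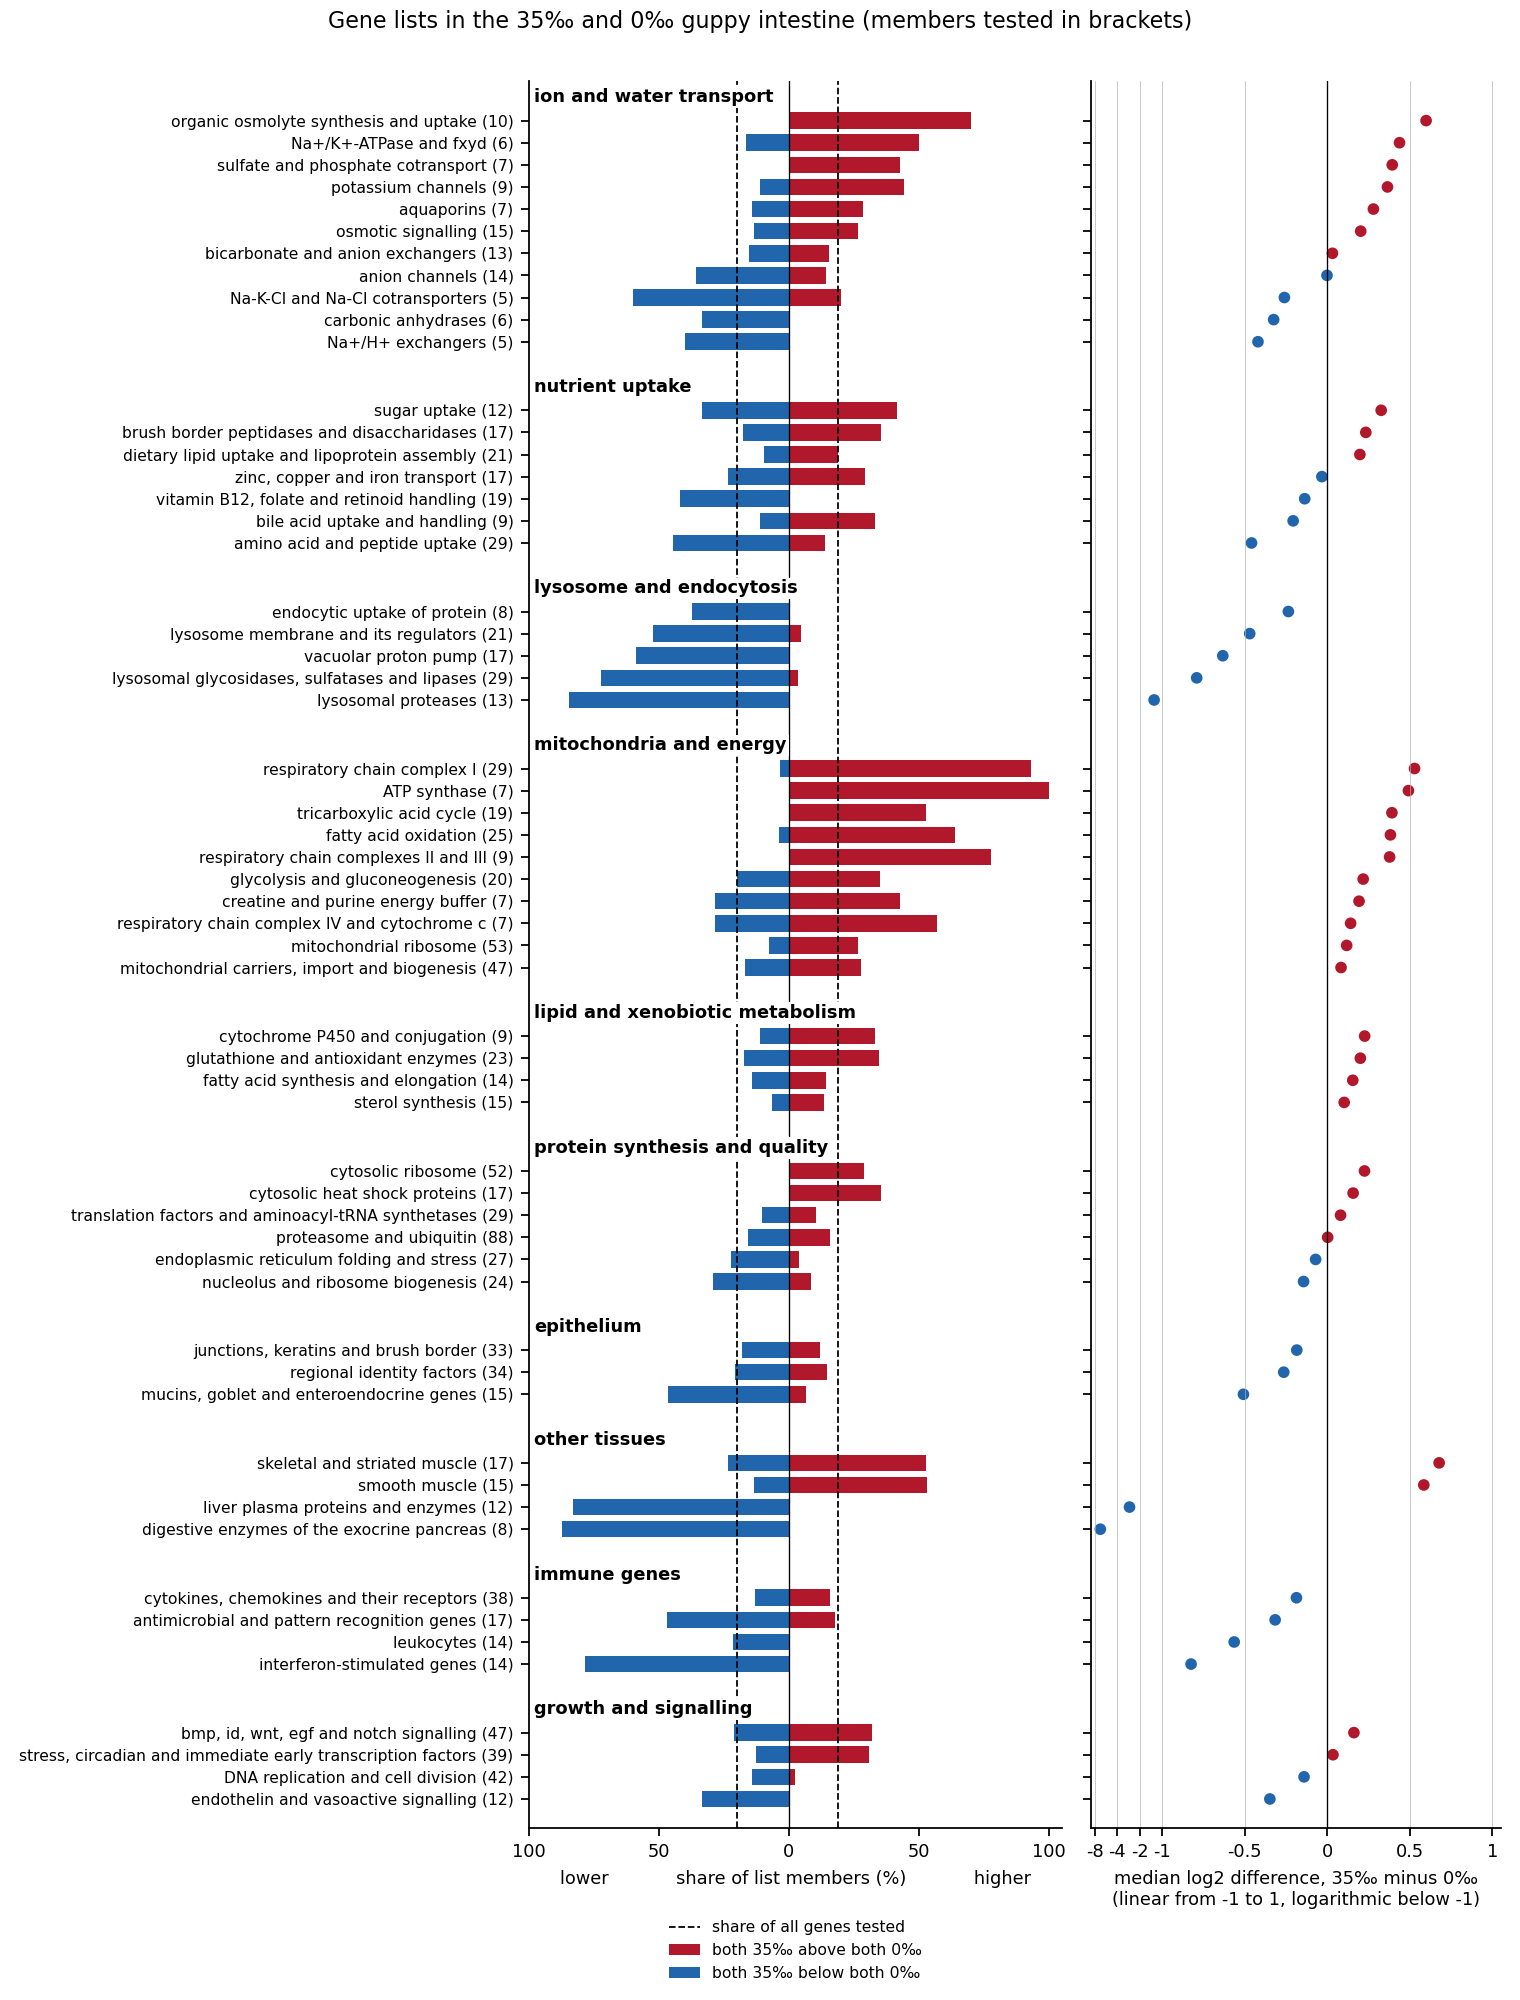
Left, for the lists drawn (those with under 5 tested members and most lists of other tissues are left out), share of tested members (percent) whose 2 libraries at 35‰ lay above (red) or below (blue) both libraries at 0‰, with dashed lines at the shares of all genes, 18.9% and 20.0%. Right, median log2 difference between 35‰ and 0‰ (linear from -1 to 1, logarithmic below -1). The respiratory chain, ATP synthase and osmolyte lists lie to the right of 0 and the lysosomal, interferon and pancreatic lists to the left. The list labelled Na-K-Cl and Na-Cl cotransporters holds the whole slc12 family.

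Genes of the slc12 family, which holds the Na-K-Cl and Na-Cl cotransporters beside other carriers, did not move as 1 block. Of 5 tested genes of this whole family, slc12a1 alone was higher in both 35‰ libraries, and 3 were lower (median -0.26). The secretory cotransporter slc12a2, which loads chloride from the blood side, had a TPM of 1.88 and 1.99 at 35‰, against 2.89 and 2.26 at 0‰. Another member of this family, slc12a8, had 3.04 and 4.98, against 9.82 and 9.34 (log2 difference -1.11, standard error 0.28, limma adjusted p = 0.239).

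Among the 6 subunits and regulators of Na+/K+-ATPase tested, 3 were higher in both 35‰ libraries and 1 was lower (median 0.44). Without 0‰ replicate 2 the median was 0.13, with 3 higher and 3 lower, beside 36.0% and 34.8% of all genes. The subunit atp1b1a, which carries the pump to the membrane, had a TPM of 1309 and 861 in seawater guts, against 495 and 767 in freshwater guts (log2 difference 0.78, standard error 0.31, limma adjusted p = 0.412). None of the 6 was called. The lower member was the regulator fxyd1, with 14.5 and 14.6 against 20.2 and 15.2.

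Exchangers that handle bicarbonate, which marine fish secrete into the gut lumen, gave mixed values. Of 13 bicarbonate and anion exchangers, 2 were higher and 2 lower in both 35‰ libraries (median 0.03). The apical chloride/bicarbonate exchanger slc26a6 had 70.6 and 71.7 at 35‰, against 49.7 and 69.5 at 0‰, so the nearest libraries almost met. Its relative slc26a3.2 had 4.02 and 5.59, against 11.8 and 20.1 (log2 difference -1.51, standard error 0.38, limma adjusted p = 0.240), and the basolateral sodium bicarbonate cotransporter slc4a4a overlapped, at 21.3 and 35.3 against 26.04 and 27.9. Carbonic anhydrases, which supply the bicarbonate, had 0 of 6 members higher and 2 lower; ca4b had 31.0 and 8.23, against 52.4 and 108, and ca5a had 4.24 and 15.7, against 23.4 and 20.0. Na+/H+ exchangers had 0 of 5 higher and 2 lower, the membrane exchanger slc9a1b (12.8 and 13.2, against 17.0 and 17.2) and slc9a8 (3.82 and 3.48, against 5.31 and 5.12). In 14 anion channel genes, 2 were higher and 5 lower. The intracellular channel proteins clic5b and clic5a were the 2 higher ones, with clic5b at 816 and 935 against 546 and 650. Of 9 potassium channels, 4 were higher and 1 lower, among them kcnk1b (47.3 and 27.4, against 16.1 and 25.1) and kcnk6 (2.35 and 1.59, against 6.81 and 6.84; log2 difference -1.41, standard error 0.24, limma adjusted p = 0.114).

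Of 7 water channels tested, 2 were higher in both 35‰ libraries, 1 was lower and 4 overlapped. The shares were 28.6% higher and 14.3% lower, beside 18.9% and 20.0% of all genes. Their median of 0.28 was -0.64 without 0‰ replicate 1 and 1.12 without 0‰ replicate 2. The channel aqp1a.1 had a TPM of 22.5 and 42.7 in the 35‰ libraries, against 13.8 and 8.48 in the 0‰ libraries (log2 difference 1.44, standard error 0.37, limma adjusted p = 0.252). The called gene aqp12, a channel of intracellular membranes that is known from the mammalian pancreas, had 0.68 and 0.37, against 19.7 and 12.7 (-3.47, standard error 0.38, limma adjusted p = 0.0252), and its call was lost with a pseudocount of 5, with no filter on low values and without 35‰ replicate 1, 35‰ replicate 2 or 0‰ replicate 1. The part of pancreas in the values of aqp12 was not tested. The most abundant water channel, aqp10b, which also passes glycerol, overlapped at 74.7 and 104.6 against 37.8 and 138.5. Of the junction genes, the pore-forming claudin cldn15a had 643 and 403, against 206 and 220 (1.25, standard error 0.30, limma adjusted p = 0.219), and the tight junction protein oclna had 13.01 and 12.9, against 23.1 and 19.6 (-0.67, standard error 0.22). The intestinal cadherin cdh17 was higher in seawater guts, at 1332 and 2236 against 912 and 1063, and the adhesion protein epcam was lower, at 504 and 600 against 838 and 633. Over the 33 junction, keratin and brush border genes, 4 were higher and 6 lower, both below the shares of all genes.

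Genes for organic osmolytes, the small solutes that balance salt without disturbing proteins, were higher as a group. Of 10 tested, 7 were higher in both 35‰ libraries and 0 were lower, with a median log2 difference of 0.60 that ranged from 0.45 to 0.76 as each library was left out. Besides ISYNA1, sord, which interconverts sorbitol and fructose, had 246 and 115 at 35‰, against 27.5 and 45.6 at 0‰ (2.22, standard error 0.40, limma adjusted p = 0.126). The aldose reductase akr1b1.1, which makes sorbitol, had 178 and 281, against 130 and 144. The 2 enzymes on the way from cysteine to taurine were both higher: cdo1 had 830 and 559, against 273 and 460, and csad had 49.5 and 76.4, against 23.5 and 35.0. The taurine transporter slc6a6b overlapped, at 78.9 and 210 against 113 and 118, as did the betaine enzyme bhmt, at 32.7 and 16.7 against 25.1 and 20.4.

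Among 15 signalling genes that respond to osmotic change, 4 were higher and 2 lower (median 0.20). Without 35‰ replicate 2 the median was -0.03, with 6 higher and 5 lower, beside 28.1% and 43.7% of all genes. The prolactin receptor prlrb had 56.5 and 61.0 in seawater guts, against 34.1 and 29.1 in freshwater guts (log2 difference 0.88, standard error 0.22, limma adjusted p = 0.235); its paralog prlra overlapped, at 19.7 and 16.3 against 10.6 and 22.2. SGK1, a kinase that raises ion transport, had 104 and 109, against 57.5 and 67.2, and oxsr1b, a kinase that activates Na-K-Cl cotransporters in mammals, had 14.2 and 16.1, against 9.29 and 10.8. The osmotic transcription factor nfat5b had 3.12 and 6.06, against 2.66 and 2.67, while nfat5a overlapped.

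**Figure D3:**
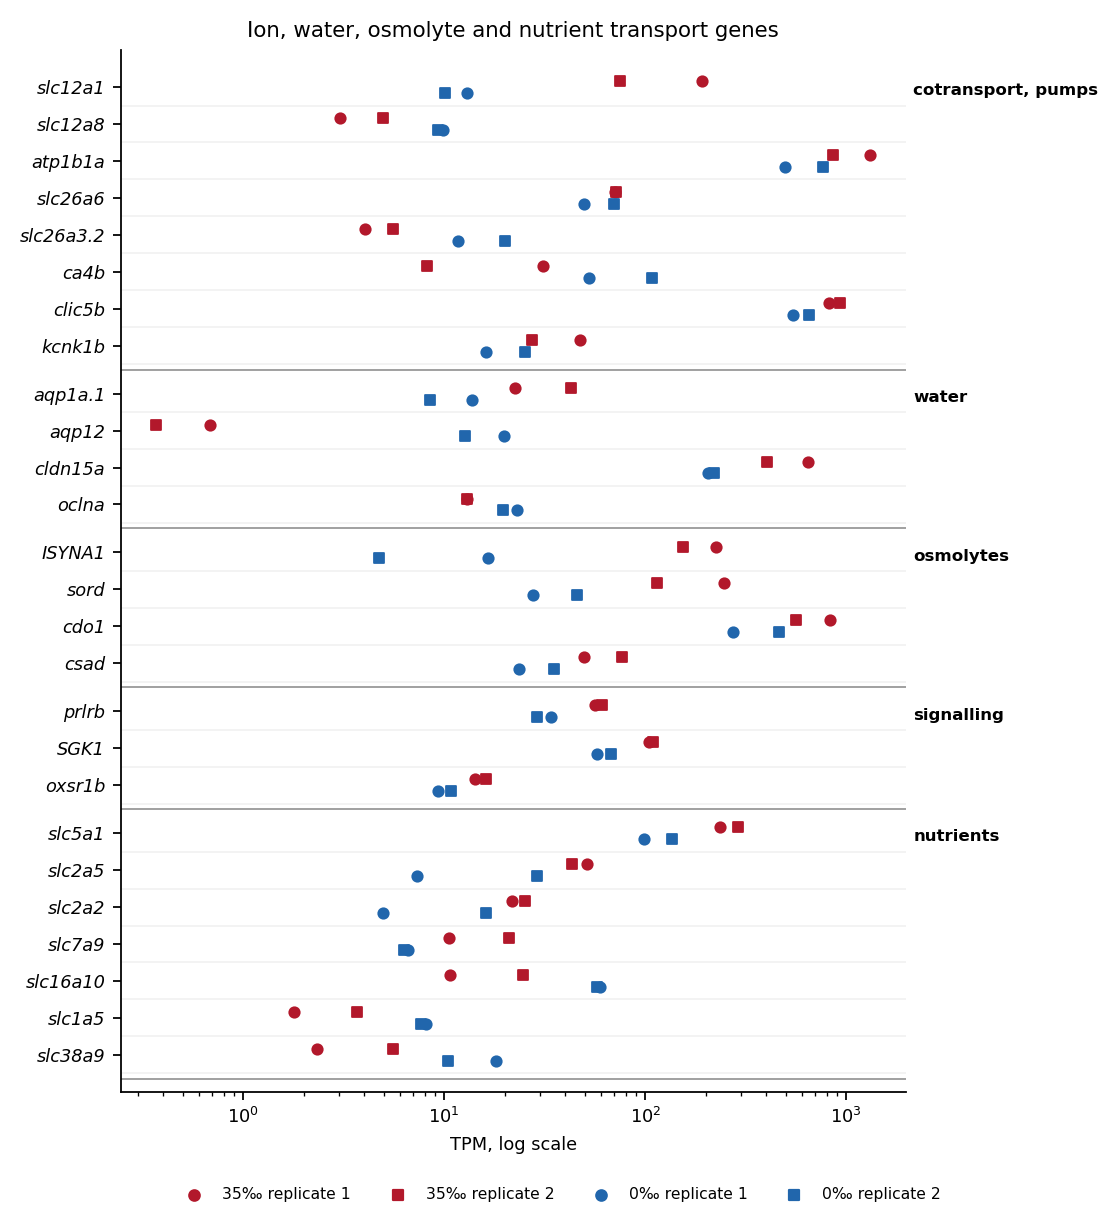
TPM (log axis) of transport, junction, osmolyte and signalling genes in each library, 35‰ in red above and 0‰ in blue below within each row, circles for replicate 1 and squares for replicate 2. 1 of the 3 copies of slc5a1 is drawn. ISYNA1 and slc12a1 show the widest gaps with 35‰ to the right, and aqp12 the widest with 35‰ to the left.

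Sugar transporters were mixed: of 12, 5 were higher and 4 lower in both 35‰ libraries (median 0.33). Without 0‰ replicate 1 the median was 0.10, with 5 each way, beside 30.1% higher and 34.4% lower of all genes. The sodium-glucose cotransporter slc5a1 had 3 copies in the table, one with 234 and 289 at 35‰ against 98.2 and 136 at 0‰ (log2 difference 1.16, standard error 0.25, limma adjusted p = 0.185), and a second with 410 and 407 against 167 and 246. The third overlapped, at 95.7 and 186 against 87.2 and 101.4. The fructose transporter slc2a5 had 51.2 and 43.0, against 7.33 and 29.0, and the basolateral glucose transporter slc2a2 had 21.7 and 25.3, against 4.95 and 16.1. The urate and glucose carrier SLC2A9 was lower in seawater guts, at 10.7 and 19.4 against 62.9 and 39.9 (-1.73, standard error 0.41).

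Of 29 amino acid and peptide transporters, 13 were lower and 4 higher (median -0.46, and between -0.71 and -0.27 with each library left out). The aromatic amino acid carrier slc16a10 had 10.7 and 24.7 in seawater guts, against 59.4 and 57.5 in freshwater guts (log2 difference -1.78, standard error 0.37, limma adjusted p = 0.161). The glutamine carrier slc1a5 had 1.79 and 3.67, against 8.14 and 7.67. The amino acid sensor of the lysosome membrane, slc38a9, had 2.32 and 5.58, against 18.2 and 10.4, and is also counted in the lysosome membrane list below. The peptide transporter slc15a1b, by far the most abundant of the carriers named here, overlapped at 759 and 871 against 446 and 773. Going the other way, the cystine and basic amino acid exchanger subunit slc7a9 had 10.5 and 21.1, against 6.63 and 6.30.

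Of 17 brush border enzymes, 6 were higher and 3 lower (median 0.23, and -0.02 without 0‰ replicate 1). The alkaline phosphatase alp3 had 912 and 1198 at 35‰, against 290 and 635 at 0‰, and the aminopeptidase enpep had 414 and 677, against 260 and 310. Against these, the dipeptidase dpep1 had 207 and 854, against 887 and 981, and ace had 19.3 and 40.7, against 63.6 and 54.2, with 35‰ replicate 1 lowest in both genes. A further alkaline phosphatase, alpi.2, was also lower, at 114 and 135 against 167 and 160. Of 7 sulfate and phosphate cotransporters, 3 were higher and 4 overlapped. The phosphate carriers slc20a2 and slc34a2b were among the higher ones, without a call, slc20a2 at 19.6 and 19.9 against 9.27 and 6.38, and slc34a2b at 26.1 and 17.4 against 2.86 and 12.49. Among 17 metal transporters, 5 were higher and 4 lower, led by the zinc importer slc39a8 (29.6 and 20.4, against 4.46 and 9.73; log2 difference 1.74, standard error 0.36, limma adjusted p = 0.161).

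Lysosomal genes were lower in the seawater gut in large part. Of the 5 lists for the lysosome and endocytosis, 4 had between 52.4% and 84.6% of their tested members lower in both 35‰ libraries, beside 20.0% of all genes. Of 13 lysosomal proteases tested, 0 were higher and 11 were lower in both 35‰ libraries (median log2 difference -1.28, and between -1.55 and -0.82 with each library left out). Besides ctsl.1 and ctsbb, the asparagine endopeptidase lgmn, which activates cathepsins, was called, with 66.7 and 82.7 at 35‰ against 1069 and 690 at 0‰ (-3.51, standard error 0.28, limma adjusted p = 0.00902). Further members were lower without a call: scpep1 had 27.6 and 34.9, against 130 and 86.1, the dipeptidyl peptidase ctsc had 116.9 and 117.0, against 437 and 252, and ctsz had 123.2 and 134, against 461 and 257. The differences were uneven: the log2 difference was -0.67 for the aspartic protease ctsd (44.7 and 47.3, against 88.0 and 61.8) and -0.19 for ctsh (79.0 and 87.5, against 94.9 and 94.8).

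The other hydrolases and the membrane machinery were lower too. Of 29 lysosomal glycosidases, sulfatases and lipases, 21 were lower and 1 was higher (median -0.79). The glycosidase naga was called, with 3.45 and 3.42 in seawater guts against 25.2 and 20.2 in freshwater guts (-2.41, standard error 0.23, limma adjusted p = 0.011). Among those not called, the sulfatase gnsb had 7.30 and 7.92, against 45.2 and 20.1, the hexosaminidase hexb had 45.0 and 41.9, against 145 and 81.8, and the acid nuclease dnase2b had 1.3 and 1.22, against 11.7 and 4.46. Of 17 subunits of the vacuolar proton pump, which acidifies the lysosome, 10 were lower and 0 higher (median -0.63), for example atp6v1ba (47.5 and 53.0, against 135 and 79.0) and ATP6V1A (18.9 and 15.6, against 38.7 and 27.6). In 0‰ replicate 1 these subunits summed to 1641, against 1074 in 0‰ replicate 2 and 825 and 853 in the 35‰ libraries, and without 0‰ replicate 1 the median was -0.33. Lysosome membrane genes had 11 of 21 lower and 1 higher; lamp2, a main structural protein of that membrane, overlapped at 80.6 and 108 against 100.05 and 88.4.

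In the list of genes for endocytic uptake of protein, 3 of 8 were lower and 0 higher (median -0.24, and from -0.45 to -0.05 as libraries were omitted in turn), with clathrin heavy chain cltca at 24.9 and 32.8 against 37.7 and 54.0. The vitamin B12 carrier tcn2 was called, at 19.9 and 29.0 in the 35‰ libraries against 147 and 129 in the 0‰ libraries (-2.47, standard error 0.30, limma adjusted p = 0.0438), and its call was lost with a pseudocount of 0.1, with no filter on low values, with no variance trend, with a replicate block and without 35‰ replicate 1, 35‰ replicate 2 or 0‰ replicate 1. In its list of 19 vitamin and retinoid genes, 8 were lower and 0 higher.

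Genes that mark position along the gut were lower about as often as genes in general, with some rear-gut hox genes among the lower ones. The rear-gut hox genes hoxa13a, hoxc11a, hoxc12a, hoxc13a and hoxa11a were lower in both 35‰ libraries, and 4 of the 5 were listed at 0 in 35‰ replicate 1. The gene hoxa13a had a TPM of 0.22 and 1.35, against 28.1 and 9.38 (log2 difference -3.36, standard error 0.55, limma adjusted p = 0.0962), and hoxc12a had 0 and 15.8, against 30.6 and 22.1. Over the 34 regional factors tested, 7 were lower and 5 higher (20.6% and 14.7%), beside 20.0% and 18.9% of all genes. One of the higher factors, foxq1b, had 31.8 and 27.9, against 8.56 and 20.4. The factor hnf4a, active in the whole gut, overlapped at 102 and 156.5 against 114 and 154. In 35‰ replicate 2 the regional genes differed. There slc10a2 and tmigd1 stood at 429 and 415, above both 0‰ libraries, and hoxa13a and hoxc13a stood at 1.35 and 1.92, below both. In the same library ctsl.1 and lgmn were at 4.02 and 82.7, close to their values in 35‰ replicate 1. The median of the 13 lysosomal proteases was -0.82 without 35‰ replicate 1 and -1.48 without 35‰ replicate 2. The part of gut position in the lysosomal values was not tested.

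The list of secreted pancreatic enzymes, which also holds ptf1a and cuzd1.1, had the lowest median of any list. All 8 genes of the list were tested; 7 were lower and 1 overlapped, with a median log2 difference of -6.76, and the list summed to 360 and 566 in the 35‰ libraries, against 11529 and 6040 in the 0‰ libraries. The bile salt-activated lipase cel.2 had 2.94 and 43.0, against 5570 and 2094 (limma adjusted p = 0.056), the elastase ela2 had 0.93 and 15.8, against 1253 and 538, and the amylase AMY1C had 0.13 and 2.71, against 24.4 and 34.1. The transcription factor ptf1a, which defines acinar cells, had 0.18 and 0 at 35‰, against 4.98 and 2.46 at 0‰. The exception was cuzd1.1, at 348 and 465 against 97.3 and 392, which made up most of the sum at 35‰. The insulin gene ins, expressed in endocrine cells of the pancreas, had 12.9 and 2.65, against 57.2 and 59.3. It had the largest difference in its list. Of the 6 endocrine pancreas genes tested, 3 were lower and 3 overlapped (median -0.44). Without 0‰ replicate 2 the median was 0.004, with 1 higher and 3 lower, beside 36.0% and 34.8% of all genes. How much pancreas was dissected with each gut is not stated, and its part in these values was not tested. Liver genes were likewise lower, in 10 of 12 tested, but most of their level sat in 1 library: serpina1l had 0.78 and 0.14, against 16.6 and 1178, and without 0‰ replicate 2 the median of the list was -1.01 in place of -2.74.

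**Figure D4:**
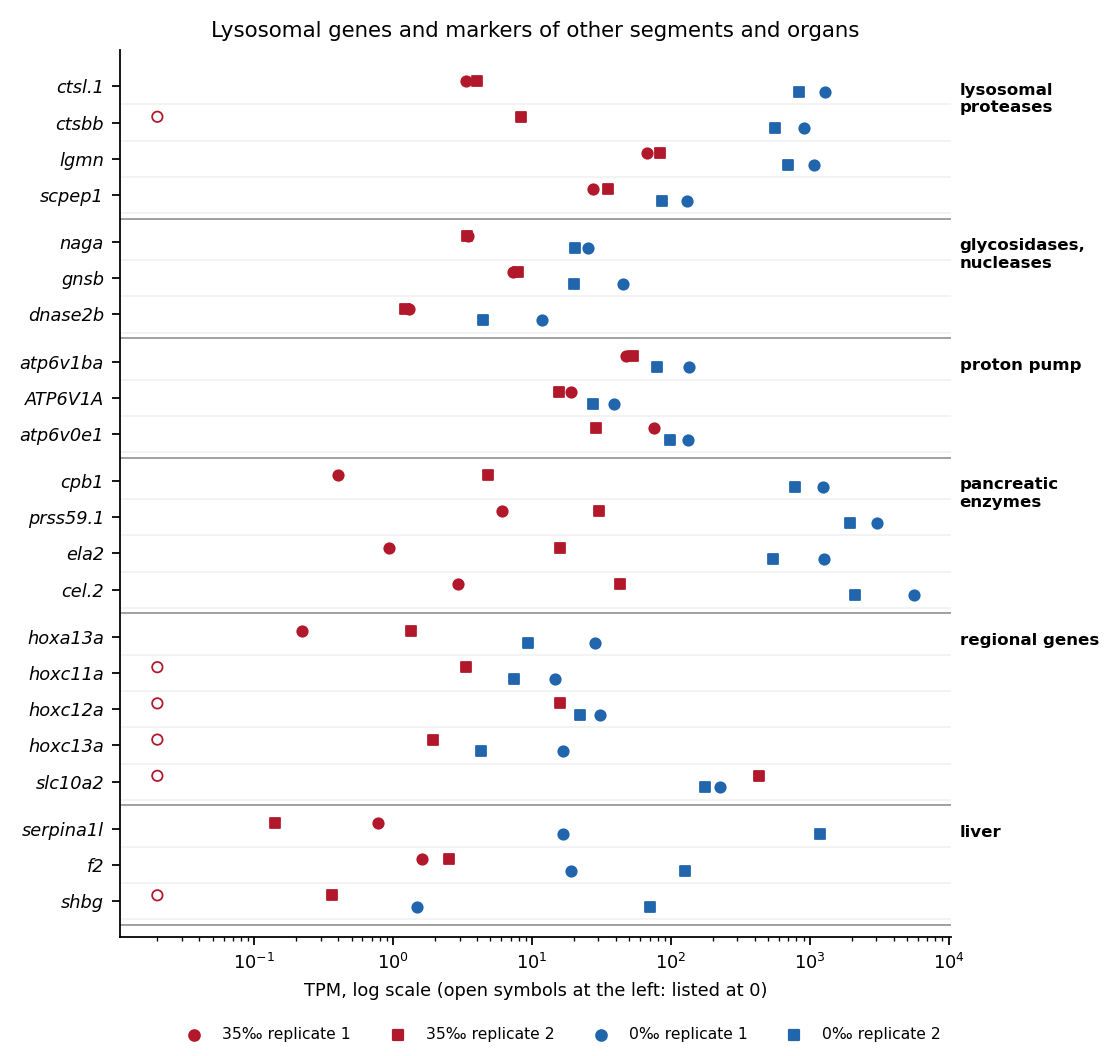
TPM (log axis) of lysosomal, pancreatic, regional and liver genes in each library, 35‰ in red and 0‰ in blue, circles for replicate 1 and squares for replicate 2, with open symbols at the left edge for values listed at 0. The lysosomal and pancreatic genes at 35‰ lie left of both 0‰ libraries, slc10a2 overlaps, and the liver genes are highest in 0‰ replicate 2.

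Genes of mitochondrial respiration were higher almost throughout, by small amounts. Unless stated, their values were not scaled to the same summed TPM. At that scaling the median over all genes was -0.16 in place of -0.01. Oxidative phosphorylation passes electrons through complexes I to IV and uses the resulting proton gradient to make ATP. Of 29 complex I genes tested, 27 were higher in both 35‰ libraries and 1 was lower, beside 18.9% and 20.0% of all genes, with a median log2 difference of 0.53. That median stayed between 0.51 and 0.57 as each library was left out. The accessory subunit ndufa12 had 325 and 483 at 35‰, against 223 and 224 at 0‰ (0.82, standard error 0.25, limma adjusted p = 0.312). The subunit ndufa9a had 258 and 354, against 171 and 178, and ndufs1, which carries iron-sulfur clusters, had 31.1 and 37.3, against 17.6 and 21.6. The exception was NDUFA4, with 51.7 and 56.0 against 90.6 and 60.8; this protein was named as part of complex I and is now placed with complex IV.

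The later complexes followed in the same direction, apart from complex IV. All 7 ATP synthase genes tested were higher (median 0.49), led by the rotor subunit atp5f1d at 858 and 802, against 419.3 and 469 (0.90, standard error 0.23, limma adjusted p = 0.24), and the catalytic subunit atp5f1b at 523 and 588, against 315 and 346. Of 9 genes of complexes II and III, 7 were higher and 0 lower (median 0.38), with uqcrb at 511 and 518 against 393 and 325. Complex IV and cytochrome c had 4 of 7 higher and 2 lower: cox4i1 had 888 and 958, against 637 and 590, while COX5B had 18.1 and 21.4, against 65.0 and 28.2, and cox6b2 had 117 and 121, against 178 and 149. With the libraries scaled to the same summed TPM the complex IV median was -0.04 in place of 0.14. No gene of these lists was called by limma.

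Of 19 genes of the tricarboxylic acid cycle and pyruvate dehydrogenase, which feed the respiratory chain, 10 were higher, 0 lower and 9 overlapped (median 0.39, and between 0.19 without 0‰ replicate 1 and 0.57 without 35‰ replicate 1), among them suclg1 (148 and 180, against 85.3 and 106) and pdhb (131 and 185, against 98.8 and 96.3). Fatty acid oxidation had 16 of 25 genes higher and 1 lower (median 0.38, and from 0.28 to 0.61 as libraries were omitted in turn). In that pathway echs1, which hydrates the enoyl-CoA intermediate, had 74.4 and 70.7, against 24.5 and 35.5 (1.27, standard error 0.24, limma adjusted p = 0.15), and acad11 had 86.2 and 107, against 41.3 and 47.8. The coactivator ppargc1a, which drives mitochondrial gene expression, had 5.52 and 8.32, against 1.55 and 2.78 (1.33, standard error 0.31, limma adjusted p = 0.21). Mitochondrial ribosomal proteins were nearer to the background, with 14 of 53 higher and 4 lower (median 0.12, and -0.06 when scaled to the same summed TPM). Glycolysis and gluconeogenesis had 7 of 20 higher and 4 lower; gpia had 522 and 719, against 450 and 361, and glucokinase gck had 18.0 and 5.86, against 27.1 and 102.

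**Figure D5:**
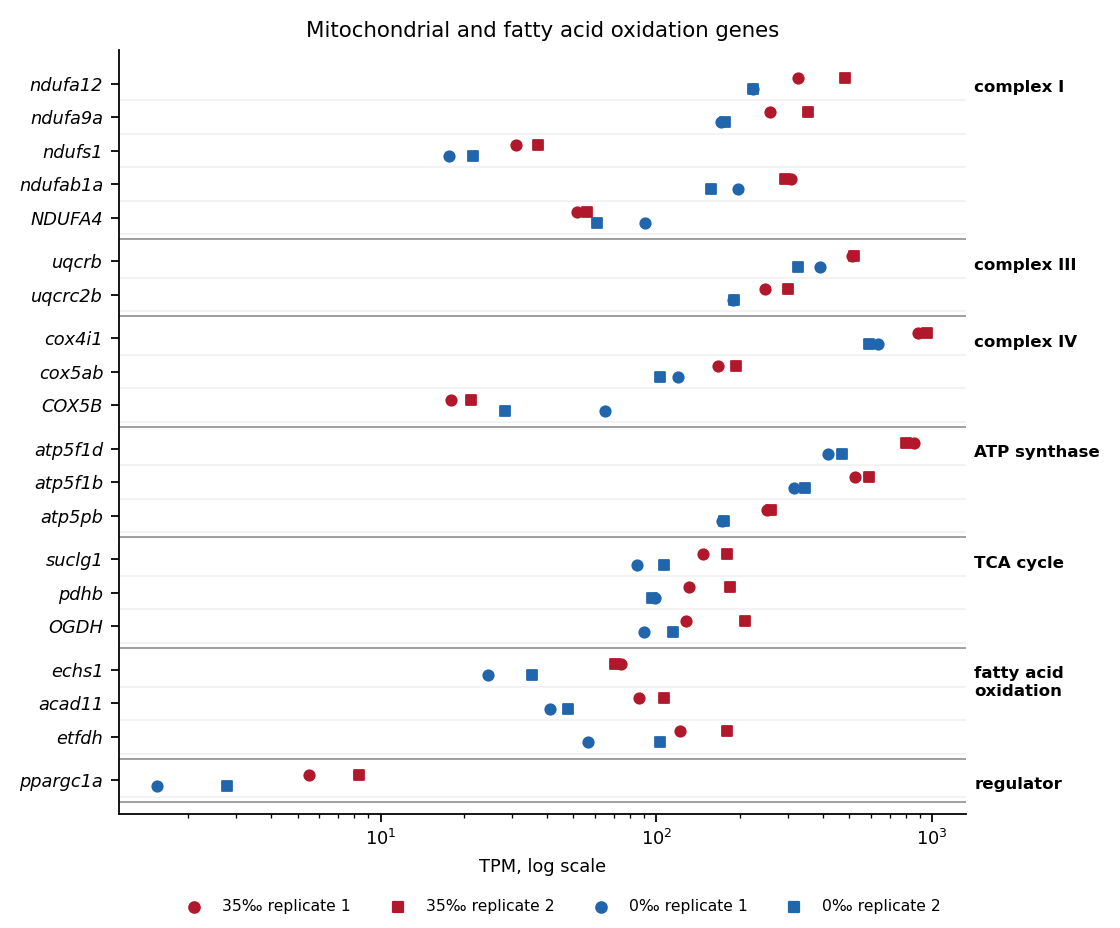
TPM (log axis) of 20 genes in each library, 35‰ in red above and 0‰ in blue below within each row, circles for replicate 1 and squares for replicate 2. The genes are of the respiratory chain, ATP synthase, the tricarboxylic acid cycle and fatty acid oxidation, with the coactivator ppargc1a as a regulator. In all rows other than NDUFA4 and COX5B both 35‰ libraries lie to the right.

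Protein synthesis genes differed little. Of 52 cytosolic ribosomal proteins, 15 were higher and 0 lower (median 0.23), and their summed TPM was 115300 and 114330 at 35‰, against 114950 and 83656 at 0‰. The higher values followed 0‰ replicate 2, the lowest library for this list. Without it the median was -0.02, with 15 of 52 higher and 16 lower, beside 36.0% and 34.8% of all genes. One ribosomal gene, rplp2, had 262 and 81.5 and was listed at 0 in both 0‰ libraries. Nucleolar genes had 2 of 24 higher and 7 lower (median -0.14), and proteasome and ubiquitin genes had 14 of 88 each way (median 0.00). Cytosolic heat shock proteins had 6 of 17 higher and 0 lower, with HSP90AA1 at 108 and 45.2 against 42.5 and 34.7 and hspb1 at 13.7 and 14.2 against 6.47 and 6.54. Of 27 folding and stress genes of the endoplasmic reticulum, 1 was higher and 6 were lower. These were 3.7% and 22.2%, beside 18.9% and 20.0% of all genes. Among the lower ones was the stress factor atf4b, at 39.9 and 54.5 against 88.3 and 67.5.

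Of 9 genes of bile acid uptake and handling, 3 were higher and 1 lower, and the median of -0.21 was 1.1 without 35‰ replicate 1 and -0.60 without 35‰ replicate 2. The enzyme cyp7a1, which commits cholesterol to bile acids, had 16.1 and 220 in seawater guts, against 0 and 2.49 in freshwater guts, and cyp8b2 had 139 and 457, against 29.6 and 46.8; 35‰ replicate 2 was highest in both. The receptor nr0b2a, which represses cyp7a1 in mammals, had 59.4 and 91.7, against 157 and 398. These enzymes are best known from liver. The liver markers summed to 64.1 and 43.4 TPM in 35‰ replicates 1 and 2, against 103 and 2171 in 0‰ replicates 1 and 2. The part of liver in the values of these enzymes was not tested. The desaturase scdb had 10.9 and 8.02, against 33.2 and 96.0 (log2 difference -2.47, standard error 0.49, limma adjusted p = 0.153), and the elongase elovl6 had 33.3 and 45.4, against 7.42 and 12.96 (1.88, standard error 0.40). Sterol synthesis turned on the library: its median of 0.10 was 0.58 without 35‰ replicate 1 and -0.78 without 35‰ replicate 2. Among 23 glutathione and antioxidant genes, 8 were higher and 4 lower. GSTM4 had 320 and 168, against 55.6 and 89.2 (1.71, standard error 0.37), and the stress sensor keap1a had 103 and 48.6, against 22.4 and 25.99. The subunits of the limiting enzyme of glutathione synthesis, gclc and gclm, were lower, at 36.4 and 43.3 against 45.8 and 53.1 and at 12.25 and 9.05 against 12.97 and 17.8.

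Interferon-stimulated genes, which are switched on by antiviral signalling, were mostly lower. Of 14 interferon-stimulated genes, 11 were lower in both 35‰ libraries and 0 higher, with a median log2 difference of -0.82 and a range of -0.92 to -0.71 as libraries were omitted in turn. The RNA sensor dhx58 had a TPM of 5.47 and 8.56 at 35‰, against 26.2 and 32.0 at 0‰ (-1.93, standard error 0.27, limma adjusted p = 0.0568), and the antiviral enzyme rsad2 had 1.71 and 0.16, against 7.08 and 15.4. The signal transducers of the pathway had the same order: stat1a had 23.04 and 38.6, against 82.6 and 55.7, and stat2 had 17.9 and 20.2, against 39.3 and 37.6. Of the 14 leukocyte markers tested, 3 were lower and 11 overlapped, and their median of -0.56 was 0.24 without 0‰ replicate 1.

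Antimicrobial genes had 8 of 17 lower and 3 higher (median -0.32, and -0.07 without 35‰ replicate 1). The peptidoglycan recognition protein pglyrp6 had 35.3 and 39.0 in the 35‰ libraries, against 346 and 342 in the 0‰ libraries (log2 difference -3.18, standard error 0.45, limma adjusted p = 0.0602), and the acute phase protein saa had 14.0 and 32.7, against 267 and 41.7. In the opposite direction, the acidic chitinases were among the most abundant genes of the table: chia.1 had 26295 and 17931, against 4139 and 10193 (1.74, standard error 0.44, limma adjusted p = 0.239), and chia.3 had 35080 and 30915, against 17919 and 30237. Together they took 12.7% and 10.1% of the summed TPM at 35‰, against 5.26% and 9.45% at 0‰. Of 15 mucin, goblet and enteroendocrine genes, 7 were lower and 1 higher (median -0.51), including agr2, which folds mucins (155 and 231, against 643 and 288), the goblet cell factor SPDEF (5.24 and 11.2, against 20.1 and 11.7) and the glucagon gene GCG (15.01 and 23.7, against 67.6 and 44.8). GCG is also counted in the endocrine pancreas list, and the part of pancreas in its values was not tested.

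Smooth muscle genes, which serve the contraction of the gut wall, were more often higher than lower. Of 15, 8 were higher and 2 lower (median 0.58, and between 0.49 and 0.71 with each library left out), among them csrp1b (74.6 and 63.3, against 31.3 and 4.84), lmod1b (21.7 and 18.4, against 9.92 and 10.6; log2 difference 0.90, standard error 0.23, limma adjusted p = 0.24) and desmb (59.5 and 68.8, against 45.4 and 34.1). Their summed TPM ranged from 775 to 786 at 35‰, against 610 to 659 at 0‰. Of 17 striated muscle genes, 9 were higher and 4 lower, and 35‰ replicate 1 held the top values, for instance 37.5 for mylpfa, against 4.88 in 35‰ replicate 2 and 0.87 and 3.59 at 0‰. Among striated muscle genes with a mean TPM of at least 5, the median was -0.29 in place of 0.68.

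Of 39 stress, circadian and early response transcription factors, 12 were higher and 5 lower (median 0.04). The AP-1 gene junbb had 99.6 and 102 at 35‰, against 42.3 and 41.5 at 0‰ (log2 difference 1.25, standard error 0.20, limma adjusted p = 0.0905), and fosab had 96.3 and 103, against 38.7 and 6.41. The clock gene per1b had 53.4 and 49.2, against 23.8 and 28.4, while bhlhe41, a repressor in the same clock, had 9.77 and 10.97, against 26.1 and 20.8. The gene id1, a target of BMP signalling, had 153 and 161, against 59.0 and 58.2 (1.4, standard error 0.24, limma adjusted p = 0.11), and igfbp5a, which binds insulin-like growth factors, was higher in both of its copies, one of which had 35.5 and 28.5, against 6.72 and 13.4. Of 47 genes of BMP, Wnt, EGF and Notch signalling, 15 were higher and 10 lower. Of 42 genes of DNA replication and cell division, 1 was higher and 6 lower, and the median of -0.14 was 0.23 without 35‰ replicate 1 and -0.47 without 35‰ replicate 2.

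The values at 18‰ placed the main differences along the salinity series. The protease ctsl.1 had 1284 and 828 at 0‰, 698 and 714 at 18‰ and 3.33 and 4.02 at 35‰, and lgmn had 1069 and 690, 648 and 785, and 66.7 and 82.7 in the same order. For cpb1 the values were 1242 and 777 at 0‰, 873 and 260 at 18‰ and 0.40 and 4.77 at 35‰. ISYNA1 had 16.6 and 4.73 at 0‰, 3.34 and 8.04 at 18‰ and 224 and 153 at 35‰. In these 4 genes the 18‰ libraries thus lay near the 0‰ range and far from the 35‰ libraries. The cotransporter slc12a1 had 12.96 and 10.1 at 0‰, 27.2 and 35.5 at 18‰ and 191 and 74.8 at 35‰, with 18‰ in between. A different order was seen for aqp1a.1, with 13.8 and 8.48 at 0‰, 65.2 and 48.7 at 18‰ and 22.5 and 42.7 at 35‰, highest at 18‰. The complex I genes summed to 4537 and 4347 at 0‰, 4220 and 4748 at 18‰ and 6141 and 6572 at 35‰.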

How the data were processed

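Intestinal RNA was isolated with TRIzol and sequenced as paired-end reads, which the authors aligned with STAR and quantified with StringTie. The deposited table holds TPM values for 6 libraries. Tool versions, the genome build and the annotation are not given in the sources used here, so no positions are printed. TPM summed to between 419412 and 481864 over the 10389 genes, below a full library, and depth cannot be recovered from TPM, so no counting error is given.

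The limma fit (limma 3.58.1, R 4.3.3) used log2(TPM + 1) of all 6 libraries with a variance trend. It was also run on simulated data with independent noise at the fitted spread. Those data held no differences in tissue content between libraries, so they cannot show how the fit behaves where libraries differ in this way. Tables and figures were made in Python 3.11.15 with pandas 2.3.3. A call needed an adjusted p under 0.05 (Benjamini-Hochberg over 7897 genes) and a fold change above 1.5. All called genes were named. Others were drawn from the 15 largest differences each way. These did not overlap, were at 0 in none of the 4 libraries and had a mean TPM of at least 10 in the higher salinity. Further names came from up to 4 members of each list each way with a mean TPM of at least 5, and from members that define a list. Not every gene that met these rules is named, and not every list is described. The genes akr1b1.1, ctsc, ctsz, hexb, hoxa11a, stat2, cuzd1.1, prlra, hnf4a, slc13a1, slc10a2 and tmigd1 were named after their values had been seen. Members and all 66 lists, matched by symbol, were chosen with earlier results of these data known. Replicates 1 and 2 share no stated fish or tank across salinities. Other pseudocounts, filters, scalings, models and the omission of each library were tried, and the list counts with a library omitted were added after the data were seen. Results that need an item withheld for evaluation are not reported here.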

Additional observations from a re-analysis of the deposited data

How the results depend on the processing

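With 2 libraries per salinity, single libraries decide much. The main analysis gave 15 calls, 1 higher and 14 lower at 35‰. Leaving out 1 library gave between 3 and 85 calls, between 0 and 25 of them higher and between 3 and 60 lower, and 2 of the 15 remained without 35‰ replicate 1. With no filter on low values there was 1 call, ctsl.1, with 0 higher and 1 lower. A mean TPM of at least 5 gave 24 calls with 3 higher, the same summed TPM gave 24 with 23 lower, the 4 libraries alone gave 3 higher, and pseudocounts of 0.1 and 5 gave 2 higher each. A replicate block gave 16 calls, 13 of them shared with the main fit, and lost endou and tcn2. The numbers were not found to pair the samples, since the correlation of deviations between same-numbered libraries was -0.04 for 35‰ and 0‰. Genes without overlap numbered 1494 higher and 1582 lower. They numbered 862 and 2458 at the same summed TPM, 159 and 233 where the gap exceeded 1.5-fold, and 1042 and 999 with a mean TPM of at least 5, where more genes were higher than lower. Leaving out 1 library gave 2221 to 3271 higher and 2271 to 3453 lower. Scaling to the same summed TPM turned the log2 difference of 4 genes, to -0.043 for cox6a1, -0.121 for ebna1bp2, -0.049 for eif4a2 and -0.003 for ush1c. At that scaling the median over all genes was -0.16, and 29 of the 66 list medians moved. A median counted as moved if it changed by at least its list's spread between libraries of a salinity. Between 16 and 19 of the 66 moved as each library was left out. The causes were not tested. Depth is unknown, so genes at low TPM cannot be judged against counting error.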
